A study of Mus musculus with 2 samples.

Results

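Ccl3, Ccl4, Ccl5, Ccl6, Ccl9 and Ccl24 encode CC chemokines, small secreted proteins that attract leukocytes through G protein-coupled receptors. These 6 genes were taken by symbol from the 32285 genes listed, and their UMI counts were read in 11362 cells of injured quadriceps muscle. Ccl6, Ccl9 and Ccl24 had their highest level on day 1 in monocyte/macrophage-like cells and were lower there on day 3, Ccl24 most of all. Ccl3 and Ccl4 were highest in neutrophil-like cells on both days. When shallow cells were left out, the order of the named classes was reversed on day 3. Of the 230 cells then named neutrophil-like, 229 had been monocyte/macrophage-like, so the order of the same cells was not tested. Ccl5 was carried by few cells, which differed between the days.

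CC chemokines bind receptors of the CCR family, and several ligands share a receptor. Ccl3 (MIP-1 alpha) signals through CCR1, among others, and Ccl4 (MIP-1 beta) is its close relative that attracts monocytes and lymphocytes. Ccl5 (RANTES) binds CCR1 and CCR3, among others, and attracts T cells and monocytes. Ccl6 and Ccl9 are rodent chemokines that signal through CCR1. Ccl24 (eotaxin-2) binds CCR3, the receptor by which eosinophils are recruited. After muscle injury, neutrophils and then monocytes enter the tissue, and macrophages change their expression program as debris is cleared and fibers regenerate.

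The cells came from the right quadriceps of male wild-type C57BL/6J mice of 14 weeks, taken 1 or 3 days after an intramuscular injection of BaCl2, a salt that kills myofibers. Both groups had the injury, and no uninjured muscle was analysed here. Each day was 1 library made from 5 pooled mice, so no difference between the days has a replicate check and no test was made. The cells were layered on Lymphocyte-M solution and centrifuged, and those at the interface were collected. They were then sorted by light scatter to remove dead cells, doublets and debris, and cryopreserved. Myofibers, which are too large for this method, were not among them. The list of possible barcodes held 737280 entries on day 1 and 6794880 on day 3, and day, library and barcode list cannot be told apart.

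After filtering, 6735 cells of day 1 and 4627 of day 3 remained, with medians of 9389 and 14548 UMIs per cell and no barcode in common. The share of called barcodes removed for mitochondrial UMIs was larger on day 3 (2013 of 6640) than on day 1 (517 of 7367). Clustering without the 6 genes gave 14 clusters, of which 7 were monocyte/macrophage-like, 2 neutrophil-like, 2 like fibro-adipogenic progenitors (FAPs), and 1 each dendritic-like, satellite cell-like and endothelial-like. The names rest on markers set against the clusters of other classes. Against all other cells, the clusters led by Ifitm6, Gm9733 and Chil3 and by Cxcl5, Il1rl1 and Prg4 had no marker of their own class among the 10 leading genes and 1 of another class (Mmp8 and Thbs4). The dendritic-like cluster had 1 of its own class (Cd209a) and 1 of another (Klrd1) among them. The endothelial-like cluster, led by Cldn5, Egfl7 and Tinagl1, was mixed. On day 1, 58 of its 73 cells had UMIs of at least 2 endothelial markers, and on day 3 25 of its 67 cells had UMIs of at least 2 natural killer (NK) cell markers and 15 of at least 2 endothelial markers. It is called the Cldn5 cluster here. No T, B or NK cell cluster was separated.

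The name myeloid chemokines was checked against the cells that held the UMIs. Neutrophil-, monocyte/macrophage- and dendritic-like cells together held 96.0% to 97.4% of the UMIs of each of the 6 genes on day 1. On day 3 they held 91.3% to 93.9% of those of Ccl3, Ccl4, Ccl6, Ccl9 and Ccl24, but 17.1% of those of Ccl5. The name therefore did not hold for Ccl5 on day 3. Of the UMIs of all genes, neutrophil-, monocyte/macrophage- and dendritic-like cells held 7.24%, 58.0% and 7.08% on day 1. On day 3 these values were 0.910%, 52.5% and 6.33%.

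In mm10 with the GENCODE vM21 annotation, the genes other than Ccl24 lie within 138.906 kb of chromosome 11 (83525778 to 83664683) in the order Ccl5, Ccl9, Ccl6, Ccl3 and Ccl4. Ccl5 (chr11:83525778-83530518) has 3 exons on the minus strand. Ccl9 (chr11:83572919-83578636) and Ccl6 (chr11:83587882-83593087), with 4 exons each on the minus strand, are 9.246 kb apart. Ccl3 (chr11:83647844-83649355, minus strand, 3 exons) and Ccl4 (chr11:83662584-83664683, plus strand, 3 exons) are 13.229 kb apart. Ccl24 lies on chromosome 5 (chr5:135569937-135573049, minus strand, 4 exons). The antisense gene E230016K23Rik overlaps Ccl6 on the opposite strand.

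The RefSeq promoter table (GRCm38.p6) held 3 of the 6 genes. Their 250 bases before the start are shown because Ccl6 and Ccl9 are neighbours whose levels ran alike across clusters, while Ccl3 of the same locus had another pattern. All 3 lie on the minus strand and are written in the direction of transcription, Ccl3 from chr11:83649379-83649628, Ccl6 from chr11:83593088-83593337 and Ccl9 from chr11:83578637-83578886. Capitals mark every match to the motifs searched on both strands, which were AP-1 (TGANTCA), PU.1 (GAGGAA), C/EBP (TTGCNNAA), the NF-kB motif and a TATA box (TATAAA).
Ccl3: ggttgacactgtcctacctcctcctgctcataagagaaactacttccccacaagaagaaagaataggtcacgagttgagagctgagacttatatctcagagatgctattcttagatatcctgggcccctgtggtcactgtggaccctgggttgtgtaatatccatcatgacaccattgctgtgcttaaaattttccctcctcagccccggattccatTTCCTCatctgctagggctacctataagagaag
Ccl6: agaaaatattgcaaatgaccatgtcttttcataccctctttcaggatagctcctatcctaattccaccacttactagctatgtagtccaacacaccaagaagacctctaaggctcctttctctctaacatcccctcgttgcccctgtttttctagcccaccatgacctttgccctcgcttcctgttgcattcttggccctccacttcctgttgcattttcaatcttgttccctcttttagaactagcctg
Ccl9: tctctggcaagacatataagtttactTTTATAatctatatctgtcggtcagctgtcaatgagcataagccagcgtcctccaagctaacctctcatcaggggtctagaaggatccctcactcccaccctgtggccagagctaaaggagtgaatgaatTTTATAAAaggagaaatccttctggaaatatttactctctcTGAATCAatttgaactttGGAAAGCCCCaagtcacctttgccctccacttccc
The Ccl3 window held 1 match, to PU.1, from 33 to 28 bases before the start. The Ccl9 window held an AP-1 match from 53 to 47, an NF-kB match from 35 to 26 and TATA box matches at 224 to 219, 94 to 89 and 92 to 87 bases before the start, the last 2 overlapping. The Ccl6 window held none of these letters. Among 32851 promoter windows of the same length, 6.75% held the AP-1 motif, 23.3% PU.1, 9.56% C/EBP, 7.25% NF-kB and 12.4% the TATA box. A match is a description of letters and no evidence of binding.

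Levels are given as CPM, the UMIs of a gene scaled to the UMIs of all genes, summed over the cells of a class, with exact 95% Poisson intervals. Ratios between days are log2 of day 3 over day 1, with exact binomial intervals. Both intervals cover counting error only. The libraries tag the 3′ end of transcripts, so counts do not grow with gene length. Over all cells, the log2 ratio was -1.70 (95% CI -1.71 to -1.68) for Ccl3, -1.26 (-1.27 to -1.24) for Ccl4, -0.43 (-0.55 to -0.32) for Ccl5, -3.30 (-3.31 to -3.28) for Ccl6, -2.65 (-2.67 to -2.63) for Ccl9 and -6.02 (-6.18 to -5.88) for Ccl24. That of Ccl5 turned to 1.93 when the CPM of single cells were averaged instead. All 6 genes passed the minimum of 500 UMIs, and 5 of them, all but Ccl5, were at least 2-fold lower on day 3, against 4.7% of the 10388 genes tested. With shallow cells left out, by a call of cells at 10% or more of the 99th percentile of UMIs, Ccl4 (-0.84) was not past 2-fold and Ccl5 (-1.73) was. In monocyte/macrophage-like cells, 4 of 6 (Ccl5, Ccl6, Ccl9 and Ccl24) were past 2-fold lower, against 4.99% of 8081 genes. In dendritic-like cells Ccl5, Ccl6, Ccl9 and Ccl24 (4 of 6) were too, against 4.84% of 2748. In neutrophil-like cells 4 genes had enough UMIs and 1, Ccl6, was past 2-fold lower, against 19.0% of 1442. With 1 library per day, these shares are descriptions.

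**Figure D1:**
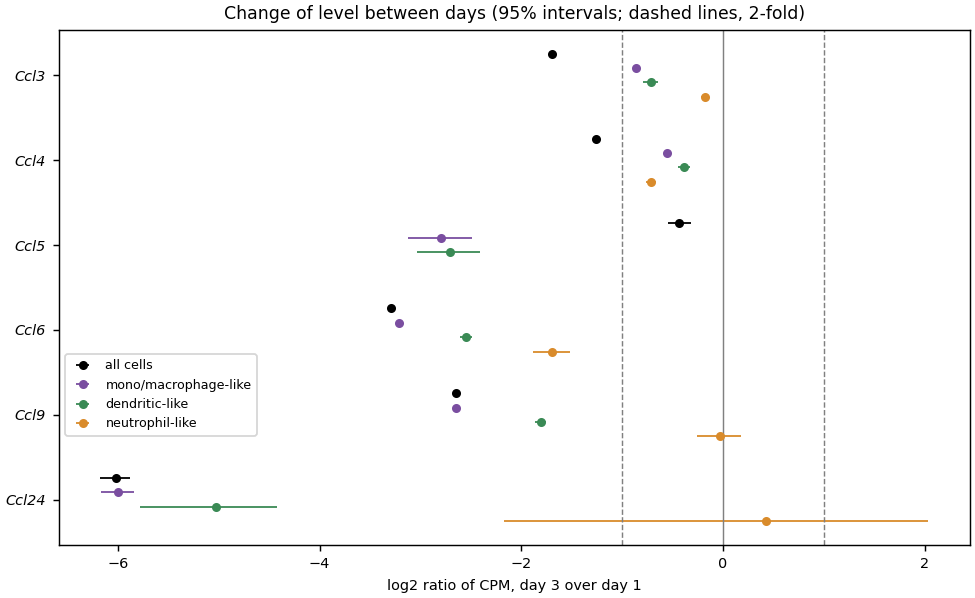
Log2 ratio of CPM on day 3 over day 1 (x axis) for each chemokine (y axis), with points for named cell classes and bars for 95% binomial intervals. Dashed lines mark 2-fold. Ccl24 in monocyte/macrophage-like cells lies at -6.00 and Ccl9 in neutrophil-like cells at -0.03. Among the classes plotted, the signs for Ccl3 and Ccl4 in neutrophil- and dendritic-like cells and for Ccl5 in dendritic-like cells and over all cells turn under other settings. The values for Ccl9 (-2.65 to 0.18) and Ccl24 (-6.48 to 4.08) in neutrophil-like cells also take both signs across settings.

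The 2 classes that carried most of these chemokines changed in size. Neutrophil-like cells were 30.8% (95% binomial CI 29.7 to 32.0) of day 1 cells and 5.62% (4.97 to 6.32) of day 3 cells, and their share of all UMIs went from 7.24% to 0.910%. Monocyte/macrophage-like cells were 52.3% and 60.2%. They were made of different clusters on the days: those led by Serpinb2, Il1a and Areg (1382 cells), Ifitm6, Gm9733 and Chil3 (1038) and Cd163, Ppbp and Pf4 (904) on day 1, and those led by Gpnmb and Syngr1 (1154), Ifi213, Ifit2 and Rsad2 (847) and Mki67, Stmn1 and Top2a (392) on day 3. Sorting, freezing, the mitochondrial limit and the depth of the barcodes taken can set such shares. The lowest barcode taken had 527 UMIs on day 1 and 1302 UMIs on day 3. Cells of fewer than 1302 UMIs could therefore be kept on day 1 only. Neutrophil-like cells were shallow, with a median of 1639.5 UMIs on day 3. The part of this unequal cut in their lower share on day 3 was not tested. To separate levels from class sizes, the day 1 levels of each class were weighted by the day 3 shares of UMIs. This moved Ccl3 over all cells from 1432 to 734 CPM, with 442 CPM measured on day 3, and Ccl4 from 1654 to 978 CPM, with 693 measured. Ccl6 moved only from 4028 to 3609 CPM (410.0 measured), Ccl9 from 2377 to 2148 (378 measured) and Ccl24 from 290.2 to 264 (4.45 measured). With the day 3 levels at the day 1 shares instead, Ccl3 had 1034 CPM and Ccl4 1107 CPM, while Ccl6 had 468, Ccl9 428 and Ccl24 5.10. Both weightings left Ccl6, Ccl9 and Ccl24 near their measured level of the day the levels were taken from, and moved Ccl3 and Ccl4 further. The weights apply to whole classes. A change of clusters within a class therefore counts here as a change of level, and these were not separated.

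**Figure D2:**
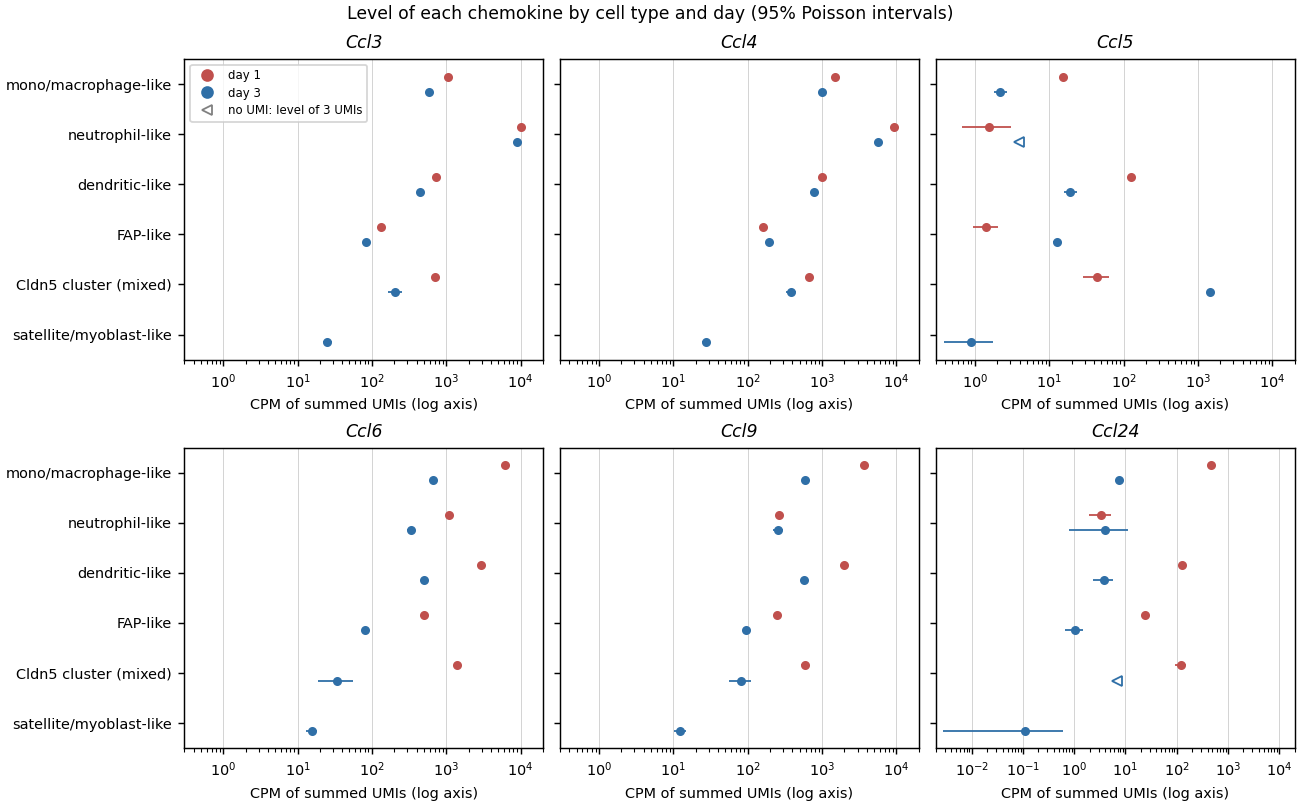
CPM of each chemokine (x axes, log scale) by named cell class (y axes) on day 1 and day 3, with 95% Poisson intervals and open triangles at the level of 3 UMIs where none was found. Classes with fewer than 50 cells on a day are left out. Neutrophil-like cells hold the highest Ccl3 and Ccl4 levels on both days as clustered here, and Ccl24 in monocyte/macrophage-like cells goes from 472 to 7.37 CPM.

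Ccl3 was highest in neutrophil-like cells, at 10038 CPM (9952 to 10125) on day 1 and 8860 CPM (8651 to 9074) on day 3. This was 9.50-fold (9.38 to 9.63) the level of monocyte/macrophage-like cells on day 1, which had 1056 CPM and were next in order. Dendritic-like cells (724 CPM) followed. The Cldn5 cluster had 717 CPM, from UMIs in 15 of its 73 cells. Free RNA, estimated with barcodes of few UMIs, equalled 48.9% of that level. It equalled 1.84% in dendritic-like cells, where the estimate rests on other genes. UMIs of Ccl3 were found in 94.8% of neutrophil-like cells on day 1 and 92.7% on day 3, or in 90.5% and 85.8% when every cell was thinned to 1000 UMIs. The median depth of these cells was 2155 and 1639.5 UMIs. The log2 ratio between days was -0.18 (-0.22 to -0.14) in neutrophil-like cells, but its sign was not stable: 8 other settings gave values above 0, up to 1.19 with each library clustered on its own, and the call of cells by depth gave -2.79. No direction is therefore drawn for Ccl3 in neutrophil-like cells. The levels moved as well, from 2804 to 10232 CPM on day 1 and from 405 to 15184 CPM on day 3 across settings, the lowest of both by depth. That call kept 115 of the 2077 neutrophil-like cells of day 1 and 21 of the 260 of day 3. After clustering anew it named 230 cells of day 3 neutrophil-like, of which 229 had been monocyte/macrophage-like and 1 neutrophil-like, and 468 of day 1, of which 345 and 114. Under it the day 3 order of the named classes was reversed, with 588 CPM in monocyte/macrophage-like cells, but the neutrophil-like class held other cells.

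Ccl4 had the same order of classes at the top. Its level in neutrophil-like cells was 9308 CPM (9225 to 9392) on day 1 and 5681 CPM (5513 to 5852) on day 3, a log2 ratio of -0.71, which turned to 0.53 with each library clustered on its own and to 0.00539 as a mean over cells. By depth, which named mostly other cells neutrophil-like, the levels were 3174 and 668 CPM. The day 3 value was below the 1021 CPM of monocyte/macrophage-like cells. UMIs of Ccl4 were in 75.3% and 74.6% of neutrophil-like cells as first clustered, and in 67.7% and 68.5% after thinning. Among monocyte/macrophage-like cells, Ccl3 went from 1056 to 583 CPM (log2 ratio -0.86, -0.88 to -0.84) and Ccl4 from 1482 to 1011 CPM (-0.55, -0.57 to -0.53). The share of thinned cells with a UMI went from 39.0% to 30.3% for Ccl3, while for Ccl4 it was 37.5% and 37.7%. Both genes were unevenly spread, since the top 10% of monocyte/macrophage-like cells held 53.4% of the Ccl3 UMIs and 63.2% of the Ccl4 UMIs on day 1. In dendritic-like cells the log2 ratios were -0.72 for Ccl3 and -0.38 for Ccl4, with values of 1.01 and 1.72 after clustering on log-normalized counts.

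The source of the UMIs shifted with the classes. Neutrophil-like cells held 50.8% of all Ccl3 UMIs on day 1 and 18.2% on day 3, and 40.8% and 7.46% of all Ccl4 UMIs. Monocyte/macrophage-like cells held 42.8% and 69.2% of Ccl3 and 52.0% and 76.7% of Ccl4. The call by depth left out most neutrophil-like cells. The cells it named so held 25.5% and 2.95% of the Ccl3 UMIs and 21.7% and 2.75% of the Ccl4 UMIs. The ratio of Ccl4 to Ccl3 UMIs was 0.927 (0.916 to 0.939) in neutrophil-like cells on day 1 and 0.641 (0.617 to 0.666) on day 3. It moved the other way in monocyte/macrophage-like cells, from 1.40 (1.39 to 1.42) to 1.74 (1.71 to 1.76), and in dendritic-like cells, from 1.40 to 1.76. With cells called by depth, the log2 ratios between days in neutrophil-like cells were -2.25 for Ccl4 and -2.79 for Ccl3. The ratio of Ccl4 to Ccl3 then rose in that class too. Most cells so named had been monocyte/macrophage-like, 345 of 468 on day 1 and 229 of 230 on day 3. This setting therefore cannot check the contrast in the same cells. Within neutrophil-like cells, the cluster led by Acod1, G0s2 and Il23a had 11609 CPM of Ccl3 on day 1 against 7478 in that led by Retnlg, S100a9 and S100a8, a fold of 1.55 (1.52 to 1.58). The Ccl4 fold was 1.39 on day 1 and 0.758 (0.714 to 0.804) on day 3, when the Acod1 cluster had 156 cells and the Retnlg cluster 104. Among monocyte/macrophage-like clusters with at least 50 cells on day 1, Ccl3 ran from 553 CPM (Ifitm6 cluster) to 1773 CPM in the cluster led by Plac8, Ear2 and Itgal. In the Plac8 cluster, which had cells on both days, Ccl3 was 441 CPM on day 3.

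**Figure D3:**
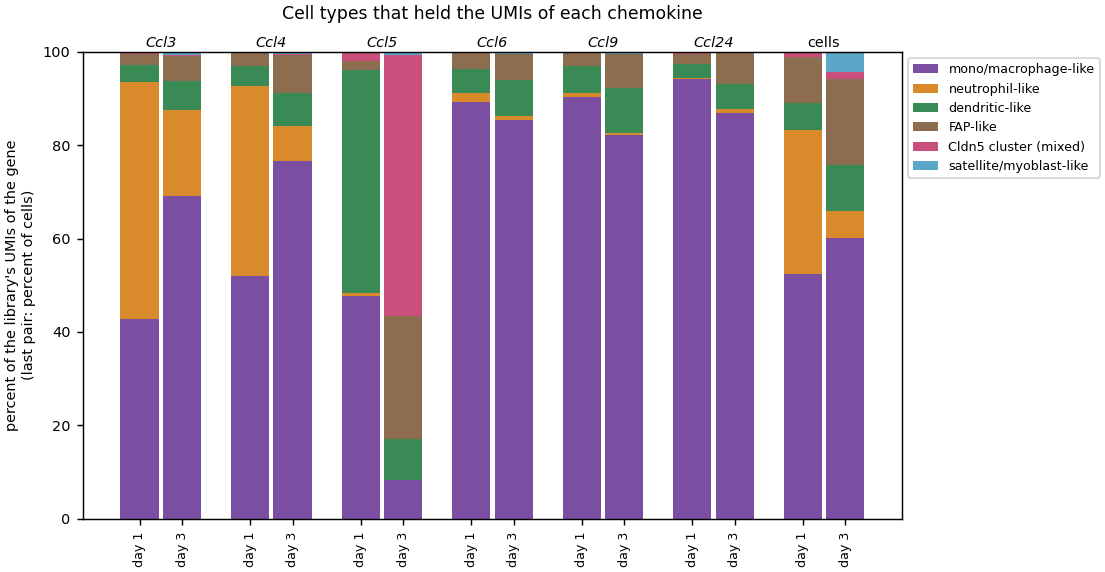
Percent of each library's UMIs of a chemokine (y axis) held by each named cell class on day 1 and day 3, with the percent of cells as the last pair of bars. Neutrophil-like cells hold 50.8% of Ccl3 UMIs on day 1 and 18.2% on day 3, and the Cldn5 cluster holds 56.0% of Ccl5 UMIs on day 3.

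Ccl5 was low and came from few cells, 113 of 6735 on day 1 (1337 UMIs) and 96 of 4627 on day 3 (1173 UMIs). On day 1 monocyte/macrophage-like cells held 47.6% of these UMIs and dendritic-like cells 47.8%. The level was 127 CPM (117 to 137) in dendritic-like cells and 15.4 CPM (14.3 to 16.7) in monocyte/macrophage-like cells, of which 2.13% had a UMI. Of the 639 UMIs in dendritic-like cells, 502 (78.6%) were in 16 cells with UMIs of at least 2 of Ccr7, Fscn1, Cacnb3 and Nudt17, genes of migratory dendritic cells. Those 16 cells had 1946 CPM (1779 to 2123) and the other dendritic-like cells 28.7 CPM. On day 3, 3 such dendritic-like cells held 44 of the 103 UMIs of the class. The rule is not specific to dendritic-like cells, since 46 of 661 FAP-like cells met it on day 1, with no UMI of Ccl5.

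On day 3 the Cldn5 cluster held 56.0% of the Ccl5 UMIs at 1479 CPM (1368 to 1597), against 44.0 CPM on day 1. Of its 657 UMIs, 627 (95.4%) were in the 25 cells with at least 2 NK markers, which had 7763 CPM (7167 to 8395). The 15 cells with at least 2 endothelial markers had none. Ccl5 is a known product of NK and T cells, and the cluster's level followed the cells with NK markers and not those with endothelial markers. FAP-like cells held 26.2% of the day 3 UMIs, but 276 of their 307 UMIs were in 2 cells (168 and 108 UMIs), and without them the level fell from 12.6 to 1.27 CPM. Their class was a different cluster on each day, led by Cxcl5, Il1rl1 and Prg4 on day 1 and by Sfrp2, Aspn and Col3a1 on day 3. In monocyte/macrophage-like cells Ccl5 went from 15.4 to 2.22 CPM, a log2 ratio of -2.79 that moved to -0.78 with each library clustered on its own. The ratio in dendritic-like cells, -2.71, turned to 0.17 after clustering on log-normalized counts. In neutrophil-like cells 8 UMIs were found on day 1 and none on day 3. There 3 UMIs would give 3.92 CPM, and the upper 95% Poisson limit is 4.815 CPM.

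**Figure D4:**
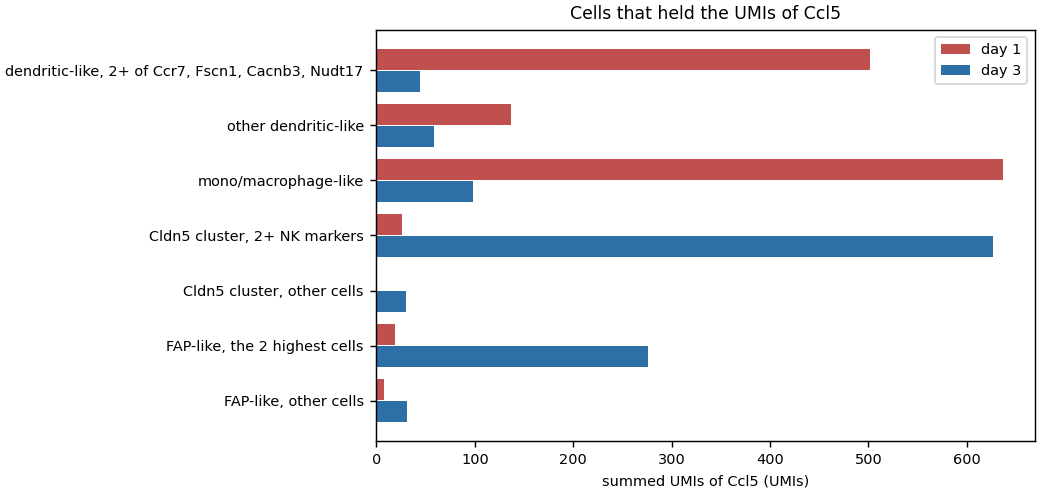
Summed UMIs of Ccl5 (x axis) in groups of cells (y axis) on day 1 and day 3. On day 1 the dendritic-like cells with migratory markers (502 UMIs) and the monocyte/macrophage-like cells (637 UMIs) hold most, and on day 3 the Cldn5 cluster cells with NK markers (627 UMIs).

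Ccl6 and Ccl9 were spread over nearly all monocyte/macrophage-like cells on day 1. Ccl6 had 6201 CPM (6177 to 6225) there and Ccl9 3702 CPM (3684 to 3721), and each was found in 98.8% of the cells. On day 3 the levels were 667 CPM (659 to 675) and 591 CPM (584 to 598), log2 ratios of -3.22 (-3.23 to -3.20) and -2.65 (-2.67 to -2.63). The share of cells thinned to 1000 UMIs that had a UMI went from 90.6% to 37.2% for Ccl6 and from 87.1% to 39.7% for Ccl9. Cells that kept a UMI also had fewer, 73.5 per positive cell on day 1 and 12.3 on day 3 for Ccl6, and 43.9 and 10.6 for Ccl9. Across all settings the ratio in this class stayed between -3.56 and -3.03 for Ccl6 and between -2.99 and -2.50 for Ccl9.

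Monocyte/macrophage-like cells held 89.3% of Ccl6 and 90.3% of Ccl9 UMIs on day 1 and 85.5% and 82.1% on day 3. Dendritic-like cells came next, with 2931 CPM of Ccl6 and 1996 CPM of Ccl9 on day 1, and log2 ratios of -2.55 and -1.81. In neutrophil-like cells Ccl6 went from 1088 CPM (1059 to 1117) to 335 CPM (296 to 379), and from 47.0% to 12.3% of thinned cells. Ccl9 was 262 CPM (248 to 276) and 256 CPM (221 to 294), a log2 ratio of -0.03 (-0.26 to 0.18). This Ccl9 ratio ran from -2.65 to 0.18 across settings, so no direction is drawn, while that of Ccl6 ran from -3.46 to -1.49. Free RNA could account for 23.8% of the day 3 Ccl6 level and 30.1% of the Ccl9 level in neutrophil-like cells, against 6.66% and 19.6% on day 1. Its part in these levels beyond that estimate was not tested.

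The ratio of Ccl6 to Ccl9 UMIs was lower on day 3 in each of the 3 myeloid classes. It was 1.67 (1.66 to 1.69) in monocyte/macrophage-like cells on day 1 and 1.13 (1.11 to 1.15) on day 3, 1.47 and 0.877 in dendritic-like cells, and 4.15 and 1.31 in neutrophil-like cells. Among monocyte/macrophage-like clusters with at least 50 cells on the day, day 1 Ccl6 was 6937 CPM in the Cd163 cluster, 6592 in the Serpinb2 cluster, 5282 in the Ifitm6 cluster and 3446 in the Plac8 cluster. On day 3, within the same limit, it was highest in the cluster led by the interferon-induced Ifit2 and Rsad2 (1122 CPM) and lowest of the macrophage-like clusters in the Gpnmb cluster (454 CPM). Ccl9 had the same 2 clusters at the ends of those with at least 50 cells, with 930 and 397 CPM. In the Plac8 cluster, present on both days with 132 and 324 cells, Ccl6 went from 3446 to 1045 CPM and Ccl9 from 2388 to 888 CPM.

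**Figure D5:**
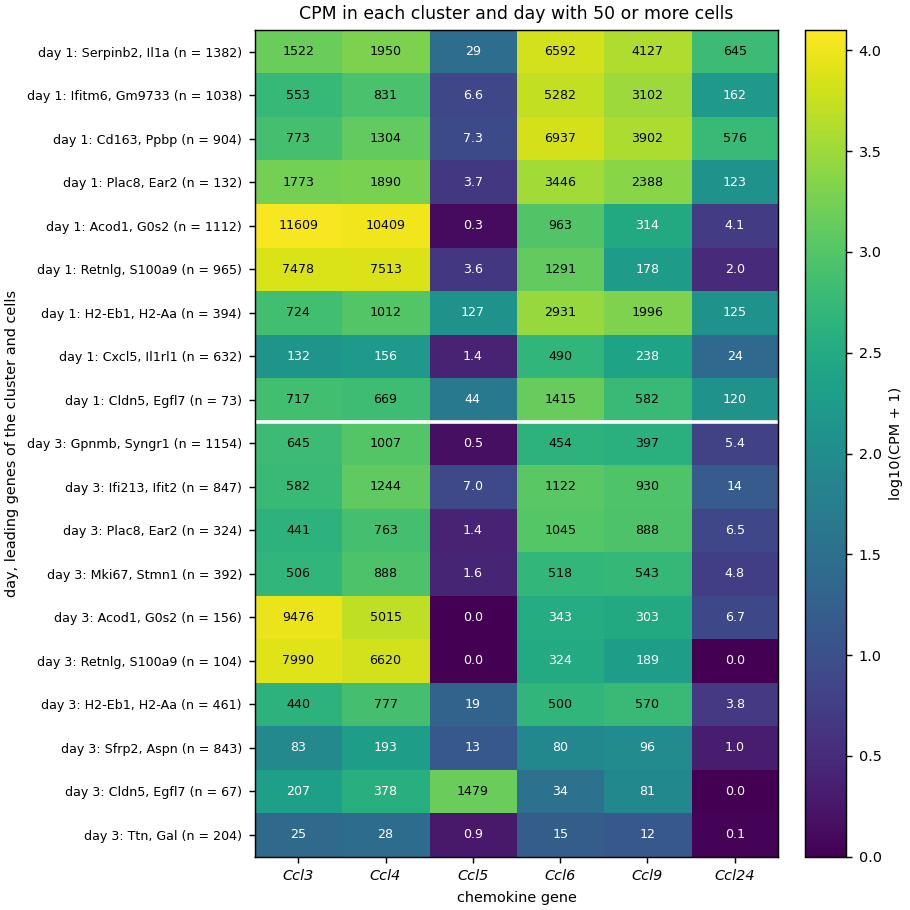
Log10(CPM + 1) of each chemokine (columns) in every cluster and day with at least 50 cells (rows, labelled by day, the 2 leading genes and number of cells). Ccl6 and Ccl9 are at 2388 CPM or more in the day 1 monocyte/macrophage-like rows and at 1122 CPM or less in all day 3 rows, and Ccl24 is at most 14.2 CPM in the day 3 rows.

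Ccl24 had the largest difference between days of the 6 genes. In monocyte/macrophage-like cells it was 472 CPM (465 to 479) on day 1, from 19470 UMIs, and 7.37 CPM (6.59 to 8.22) on day 3, from 326 UMIs. The log2 ratio was -6.00 (-6.16 to -5.84) and stayed between -6.34 and -5.80 across all settings. It was carried by part of the class, with a UMI in 38.8% of cells on day 1 and the top 10% of cells holding 80.0% of the UMIs. After thinning, 17.4% of day 1 cells and 0.790% of day 3 cells had a UMI. On day 1 the Serpinb2 cluster had 645 CPM and the Cd163 cluster 576 CPM, against 162 in the Ifitm6 cluster and 123 in the Plac8 cluster. On day 3 the highest value among clusters with at least 50 cells was 14.2 CPM, in the Ifi213 cluster. In the Plac8 cluster it went from 123 to 6.52 CPM. The 71 UMIs of the Cldn5 cluster on day 1 were in 3 cells, and free RNA equalled 52.0% of its level. Dendritic-like cells had 125 CPM on day 1 and 3.75 CPM on day 3, and neutrophil-like cells 17 and 3 UMIs in all.

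FAP-like cells, connective tissue progenitors, served as the class that should lack these leukocyte chemokines. Their shares of cells with a UMI on day 1 were 28.1% for Ccl3, 48.1% for Ccl6 and 8.77% for Ccl24, at a median depth of 27628 UMIs, and 5.45%, 12.7% and 0.908% after thinning. Estimated free RNA equalled 57.5% (Ccl6) to 124% (Ccl5) of their levels on day 1 and 33.4% (Ccl5) to 371% (Ccl24) on day 3. This estimate rests on myeloid genes, so myeloid RNA of any origin counts in it. The top 10% of FAP-like cells held 86.5% (Ccl9) to 94.5% (Ccl4) of the UMIs of Ccl3, Ccl4, Ccl6 and Ccl9 on day 1. On day 3 they held 60.3% (Ccl9) to 85.3% (Ccl4). The origin of these UMIs was not tested. In monocyte/macrophage-like cells estimated free RNA equalled at most 3.12% on day 1 and, Ccl5 (10.9%) apart, at most 2.97% on day 3. These estimates rest on other genes than those of FAP-like cells, so the values are not on the same scale. On day 3 Ccl24 was found in 5.99% of monocyte/macrophage-like cells and in 2.36% of FAP-like cells, at medians of 13862 and 25633 UMIs, and at 7.37 and 1.03 CPM.

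Detection of Ccl3 and Ccl4 in single monocyte/macrophage-like cells went together. On day 1, 85.6% of monocyte/macrophage-like cells with a UMI of Ccl4 had one of Ccl3, against 52.7% of those without, and on day 3 80.7% and 51.5%. Deeper cells are more likely to show both, and this was not corrected for. Across the 19 groups of at least 50 cells made by cluster and day, Pearson's r of log2(CPM + 1) was 0.98 for Ccl3 with Ccl4 and 0.94 for Ccl6 with Ccl9, while Ccl24 had 0.85 with Ccl6 and 0.86 with Ccl9. These groups share 2 libraries and their depth, and the values are descriptions. Among 10387 genes, the nearest to Ccl3 were Ccrl2 (0.99), Ccl4, Il1rn (0.97), Tnf (0.97) and Tnfrsf1b (0.96), and those to Ccl4 were Ccl3, Ncf1, Plek, Il1rn and Ccrl2, at 0.97 to 0.98. Nearest to Ccl6 were Arpc1b (0.95), Por, Ccl9, Ccdc71l and Tmem251 (0.92), and to Ccl9 Fcgr2b (0.97), Ccl6, Gpr65, Cd86 and Cacna1d (0.93). Nearest to Ccl24 were Arg1 (0.94), an enzyme of arginine metabolism, Ppbp (0.93), Cers2 (0.93), Ms4a8a (0.89) and Pisd (0.89). Ccl5 had lower values, with Ramp3 (0.84), H2-Q7 (0.80), Ms4a4b (0.79), H2-Q6 (0.78) and Klrd1 (0.78), an NK marker. Klrd1 was also among the 10 leading genes of the dendritic-like cluster.

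Receptors were read in the same cells. Ccr1, a receptor of Ccl3, Ccl5, Ccl6 and Ccl9, was highest in neutrophil-like cells, at 1513 CPM (1479 to 1547) on day 1 and 717 CPM (658 to 779) on day 3, and went from 390 to 105 CPM in monocyte/macrophage-like cells. Ccr3, the receptor of Ccl24, had 70 UMIs on day 1 and 79 on day 3 in all cells, and at most 5.63 CPM in any class. The other listed CC chemokines gave the setting: of the 12, 4 had at least 500 UMIs in monocyte/macrophage-like cells and 3 were past 2-fold lower on day 3. Their log2 ratios were -2.44 for Ccl2, -1.69 for Ccl7 and -1.07 for Ccl12, all ligands of CCR2, the receptor by which monocytes are recruited, and 0.74 for Ccl8. Among the receptors, Ccr1 (-1.89) and the atypical receptor Ccrl2 (-1.47) were past 2-fold lower, and Ccr2 had a log2 ratio of -0.58. The median log2 ratio over all genes tested in this class was 0.34.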

How the data were processed

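The deposited files hold 1 matrix of unnormalized UMI counts for each day, which the authors made from 10x Genomics 3′ libraries aligned to mm10, for all listed barcodes and with no call of cells. The submitters' processing notes name Cell Ranger 5.0.0, and the matrix headers give Cell Ranger version 4. The 7367 (day 1) and 6640 (day 3) barcodes with the most UMIs were taken. Cells with at least 1000 UMIs, at least 200 genes and at most 7.5% mitochondrial UMIs were kept. They held 71141227 UMIs on day 1 and 84177707 on day 3. The limit of 1000 UMIs removed 340 barcodes on day 1 and 0 on day 3, where the lowest barcode taken had 1302 UMIs.

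Both libraries were clustered together in Seurat 5.3.0 after SCTransform, with 3000 variable features, 10 principal components and resolution 0.8. The 6 chemokines, the listed CC ligands and receptors and the naming markers were kept out of these features. Each cluster was named from marker lists, with at least 3 markers raised, and doublets were not removed, except in an alternative by Scrublet score.

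UMIs were summed per class and day and given as CPM with exact 95% Poisson intervals. Log2 ratios add 0.5 to each count, with exact binomial intervals. Where no UMI was found, the limit is the level that 3 UMIs would give. All of these cover counting error only. No test across samples was possible with 1 library per day. A share of cells with a UMI was also computed after thinning each cell to 1000 UMIs, which left out no cell. The profile of free RNA came from barcodes with at most 100 UMIs. Its share in a class was scaled by genes of other cells. These were S100a8, S100a9, Lyz2, C1qa, C1qb and C1qc in FAP-like, endothelial-like and satellite cell-like cells. In the other classes they were Col1a1, Col1a2, Col3a1 and Dcn. Shares that rest on different genes are not on the same scale. The background for a count of genes past 2-fold is all genes with at least 500 UMIs in that class. For each of the 6 genes, the 5 genes nearest by Pearson's r over clusters and days were named, and of the listed CC ligands and receptors those with at least 500 UMIs in monocyte/macrophage-like cells. Python 3.11.15, scanpy 1.11.5 and scipy 1.17.1 were used. The interval and ratio scripts were tested on simulated data.

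The 6 genes, the marker lists and the lists of ligands and receptors were chosen with earlier results of these data known. Values of some listed genes are not reported here.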

Additional observations from a re-analysis of the deposited data

Results flagged for a closer look

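For 2 of the chemokines, the direction of the difference between days was opposite in different cell classes, and this difference was not tested, since each day is 1 library. Ccl4 had a log2 ratio of day 3 over day 1 of 0.24 (95% CI 0.18 to 0.31) in FAP-like cells, against -0.55 in monocyte/macrophage-like cells, -0.71 in neutrophil-like cells, -0.38 in dendritic-like cells and -0.82 in the Cldn5 cluster. The FAP-like level was 163 CPM on day 1 and 192 CPM on day 3, and estimated free RNA equalled 83.6% and 77.4% of it. The FAP-like class was a different cluster on each day, and the ratio turned to -1.77 with clusters of doubtful name left out, so no direction is drawn from it.

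Ccl5 had a log2 ratio of 3.12 (2.57 to 3.77) in FAP-like cells and 5.05 (4.51 to 5.70) in the Cldn5 cluster, against -2.79 in monocyte/macrophage-like cells and -2.71 in dendritic-like cells. Without the 2 highest cells the FAP-like level on day 3 was 1.27 CPM, beside 1.43 CPM on day 1, and neither of the 2 cells was among those removed by doublet score. In the Cldn5 cluster the day 3 UMIs lay in cells with NK markers, of which it held 3 on day 1 and 25 on day 3.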

How the results depend on the processing

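All 6 genes were lower on day 3 in monocyte/macrophage-like cells under every alternative run, and over all cells as well except for Ccl5, with a log2 ratio of 1.93 as a mean over single cells. In monocyte/macrophage-like cells the ratios ranged from -1.20 to -0.50 for Ccl3, -0.90 to -0.37 for Ccl4, -3.37 to -0.78 for Ccl5, -3.56 to -3.03 for Ccl6, -2.99 to -2.50 for Ccl9 and -6.34 to -5.80 for Ccl24. The number of genes with their highest day 1 level in these cells was 3, and 4 with each library clustered on its own, when Ccl5 joined. With each cell named by its own marker score it was 2, without Ccl24. In neutrophil-like cells the ratio of Ccl3 turned to 0.32 with a mitochondrial limit of 15%, 0.34 without doublets, 0.54 after log-normalization, 1.19 with each library clustered on its own, 0.442 with cells named by score, 0.22 after subtracting free RNA, 0.64 as a mean over cells and 0.0268 relative to the median gene. That of Ccl4 turned to 0.53 with each library on its own and to 0.00539 as a mean over cells. In dendritic-like cells, log-normalization gave 1.01 for Ccl3, 1.72 for Ccl4 and 0.17 for Ccl5. In FAP-like cells Ccl3 turned to 0.17 without doublets and Ccl4 to -1.77 with clusters of doubtful name left out. The call by depth kept no cell under 4624 UMIs on day 1 or 6301 on day 3. It put monocyte/macrophage-like above neutrophil-like cells in Ccl3 and Ccl4 on day 3. Of the 230 cells it named neutrophil-like on that day, 229 had been monocyte/macrophage-like. The causes of the changes under other settings were not tested. The alternatives that left doubtful clusters unnamed, left out the 2 highest cells, rescaled by the median gene or split the Cldn5 cluster were chosen after seeing the data. No paired analysis was possible because each day had 1 library. Counts were smallest for Ccl5 and Ccl24, with no more than 17 UMIs of either in neutrophil-like cells on a day. Estimated free RNA equalled 178% of the day 1 Ccl24 level in those cells. Whether depth limited these counts was not tested.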
